A study of Mus musculus with 2 samples.

Results

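*Epcam*, *Grhl2*, *Esrp1*, *Krt8*, *Krt18*, *Vim*, *Zeb1*, *Zeb2*, *Snai1* and *Snai2* were followed as regulators and markers of the epithelial and the mesenchymal state, from pituitary stem cells (SCs) through differentiating cells to endocrine cells. They are 10 of the 31055 genes counted in each library and were chosen by symbol, as 5 epithelial and 5 mesenchymal genes, and each symbol was found once. The material was the SOX9iresGFP+ cell fraction of pooled pituitaries from Sox9iresGFP/+ mice at postnatal day 3, sorted by flow cytometry, with 1 male (XY) and 1 female (XX) single-cell library. SOX9 is a transcription factor of pituitary SCs. The reporter protein is long-lived, and cells that have lately left the stem state are still sorted by it. All cells carried the Sox9iresGFP allele and none was treated. With 1 library per sex there is no biological replicate, so no p-value is given, a direction is stated only where both libraries share it, and the 95% intervals of levels, shares and ratios cover counting error only.

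Epithelial cells adhere through junctional proteins such as the cell surface glycoprotein EPCAM and the claudins, and are stiffened by the simple epithelial keratins 8 and 18, which pair to form filaments. Grainyhead-like 2 (GRHL2) is a transcription factor that maintains this state, and ESRP1 is an RNA-binding protein that directs epithelial splice forms. Mesenchymal cells instead build filaments of vimentin, and the zinc finger factors ZEB1, ZEB2, SNAI1 (Snail) and SNAI2 (Slug) repress epithelial genes through E-box sequences. Transitions between the states accompany cell movement in development, and pituitary SCs, which line the cleft and also lie in the parenchyma, are known to combine epithelial features with vimentin.

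Cells were placed in 6 classes by raw counts of unique molecular identifiers (UMIs) of marker genes, none of which is a member of the set, and cells that met 2 gates were left out. SCs had at least 3 *Sox2* UMIs, at least 2 of *Sox9*, *Ednrb* and *Aldh1a2* together, and at most 1 of *Lef1*, *Dll1*, *Shh*, *Smoc2* and *Pou3f4* together. Differentiating cells had at least 5 UMIs of those last 5 genes, from at least 2 of them. Gonadotroph-like cells had at least 20 *Cga* UMIs and at least 2 of *Gnrhr*, *Lhb*, *Fshb*, *Nr5a1*, *Foxl2* and *Neurod1*, Pou1f1-lineage cells at least 5 *Pou1f1* UMIs, and Pomc-high cells at least 100 *Pomc* UMIs. Mesenchymal cells, the reference, had at least 20 UMIs of *Dcn*, *Col1a1*, *Col1a2*, *Col3a1* and *Lum* together. The male and the female library gave 2316 and 2668 SCs, 998 and 763 differentiating cells, 843 and 130 gonadotroph-like cells, 631 and 223 Pou1f1-lineage cells, 362 and 131 Pomc-high cells and 550 and 300 mesenchymal cells.

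The classes held 5700 of the 10410 male cells kept (54.8%) and 4215 of the 5711 female ones (73.8%). Median depth ranged over the 6 classes from 8005.5 to 14577 UMIs per cell in the male and from 7606 to 15280 in the female library, lowest in mesenchymal cells, and the 2 libraries shared 19 barcode sequences. The 4574 male cells that met no gate were shallow, with a median of 1737 UMIs, while the 1455 female ones had a median of 8346. *Sox2* was at 678 and 815 UMIs per 1000000 UMIs of the class (CPM) in SCs against 26.8 and 13.0 in mesenchymal cells. Mesenchymal cells had *Dcn* at 5135 and 6237 CPM. Both genes are part of the gates, so these levels do not test the labelled cell type, stem cell. The pituitary factor *Pitx1*, which is in no gate, was at 185 and 187 CPM in SCs and at only 11.2 and 6.34 CPM in mesenchymal cells. Growth hormone transcripts, which SCs do not make, stood at 336 and 196 CPM in SCs and at 819 and 54.1 CPM in mesenchymal cells, and the part of free RNA in the low levels below was not tested. Levels are compared for the same gene between classes and never between genes, since CPM is not corrected for transcript length or capture.

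The upstream sequences are shown because the E-box is the element bound by the ZEB and SNAI factors. The 250 bases before the start sites of *Epcam*, *Krt8*, *Krt18* and *Vim* were taken from RefSeq on GRCm38.p6, which has the same primary assembly as mm10, and are written in the direction of the gene, with E-boxes (CACCTG or its complement CAGGTG) and the GRHL core (ACCGGT, its own complement) in capitals. The windows lie at chr17:87635729-87635978 on the + strand for *Epcam*, chr15:102004343-102004592 on the - strand for *Krt8*, chr15:102027966-102028215 on the + strand for *Krt18* and chr2:13574061-13574310 on the + strand for *Vim*.
Epcam: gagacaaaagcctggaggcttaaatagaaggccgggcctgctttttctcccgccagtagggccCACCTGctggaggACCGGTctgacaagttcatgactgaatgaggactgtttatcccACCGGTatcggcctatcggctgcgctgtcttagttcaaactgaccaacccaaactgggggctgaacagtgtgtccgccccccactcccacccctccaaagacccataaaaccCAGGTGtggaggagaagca
Krt8: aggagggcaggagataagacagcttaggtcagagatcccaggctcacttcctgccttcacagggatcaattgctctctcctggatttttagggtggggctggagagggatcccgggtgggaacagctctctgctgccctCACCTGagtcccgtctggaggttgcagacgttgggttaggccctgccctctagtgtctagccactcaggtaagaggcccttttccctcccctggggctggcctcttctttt
Krt18: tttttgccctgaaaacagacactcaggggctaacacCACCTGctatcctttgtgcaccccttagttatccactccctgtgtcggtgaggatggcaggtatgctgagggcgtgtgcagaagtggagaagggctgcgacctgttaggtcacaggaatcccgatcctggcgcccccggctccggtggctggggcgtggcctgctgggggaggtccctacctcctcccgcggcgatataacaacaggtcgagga
Vim: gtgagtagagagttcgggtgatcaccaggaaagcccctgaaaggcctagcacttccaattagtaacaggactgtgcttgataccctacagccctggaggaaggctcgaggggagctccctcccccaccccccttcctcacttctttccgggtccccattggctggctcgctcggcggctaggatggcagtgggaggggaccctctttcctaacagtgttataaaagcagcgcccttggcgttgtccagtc

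The *Epcam* window held 2 E-boxes, beginning 187 and 19 bases before the start site, and 2 copies of the GRHL core, at 174 and 131 bases. *Krt8* had 1 E-box at 111 bases and *Krt18* 1 at 214 bases, and neither had the GRHL core. *Vim* had none of these letters in its window. Among 32851 such windows of 27025 genes, 17.2% held at least 1 E-box and 2.06% at least 2, whereas 1.86% held the GRHL core and 0.0274% held at least 2 copies. Windows for 6 of the 10 members were present. That of *Snai1* held 1 E-box at 126 bases, and the 4 of *Zeb2* held neither motif. A match describes letters and is not a binding site. In the genome *Krt8* and *Krt18* are neighbours, at chr15:101996698-102004482 on the - strand and chr15:102028180-102032027 on the + strand in mm10 (GENCODE vM21), separated by 23697 bases. In the same annotation *Epcam* lies at chr17:87635979-87651129 (+), *Grhl2* at chr15:37233036-37363569 (+), *Esrp1* at chr4:11331933-11386783 (-), *Vim* at chr2:13573927-13582826 (+), *Zeb2* at chr2:44983632-45117395 (-), *Snai1* at chr2:167538195-167542814 (+) and *Snai2* at chr16:14705852-14709385 (+). The windows precede RefSeq start sites, which can differ from the gene ends given here. By these positions the *Vim* window and some of those of *Zeb2* lie within the gene. The windows of *Krt8* and *Krt18* overlap their genes in part.

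In SCs, all 5 epithelial genes were far above their level in mesenchymal cells, and *Vim* stood beside them at the level of the mesenchymal reference, whereas *Zeb1*, *Snai1* and *Snai2* were at or near 1 CPM. In differentiating cells *Krt8*, *Krt18* and *Vim* fell and *Zeb1* rose, while *Epcam* changed by less than 2-fold. Endocrine classes had *Epcam* and lower keratins than SCs, with *Zeb2* high in Pou1f1-lineage cells and low in Pomc-high cells, and *Zeb1* highest among epithelial classes in Pomc-high cells. The plot of levels by class shows this for the 10 genes.

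The comparison of mesenchymal cells with SCs asks how far each gene separates the states in this tissue. A gene was called where its level, with 5 CPM added, differed by at least 2-fold in the same direction in both libraries, among genes with at least 100 UMIs over the classes compared. By this rule 9 of the 10 members were called, 5 lower and 4 higher in mesenchymal cells, where 15.9% of the 12877 genes tested were called (8.65% lower and 7.25% higher). The one not called was *Vim*.

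*Epcam* was at 2286 CPM in male and 2173 CPM in female SCs, and at 101 and 48.6 CPM in mesenchymal cells, 22.6-fold (20.7 to 24.8) and 44.8-fold (37.5 to 53.9) lower. *Esrp1* was at 31.3 and 26.6 CPM in SCs against 1.20 and 1.97 CPM, 26.1-fold (12 to 71.3) and 13.5-fold (5.75 to 41.6) lower. *Grhl2* was at 22.7 and 26.4 CPM in SCs and at 1.20 CPM in male mesenchymal cells, 18.9-fold (8.65 to 51.7) lower. No *Grhl2* UMI was found in female mesenchymal cells. The limit of 3 UMIs used for a count of 0 is 1.18 CPM there, 22.3-fold below SCs. The interval of the female ratio allows a difference as small as 18.1-fold. So the transcription factor and the splicing regulator of the epithelial state followed the adhesion gene, in both libraries.

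The keratins separated the classes by as much. *Krt8* was at 252 and 362 CPM in SCs against 10.2 and 10.7 CPM in mesenchymal cells, 24.7-fold (18.8 to 33.2) and 34.0-fold (23.3 to 51.6) lower. *Krt18* was at 818 and 944 CPM against 20.2 and 24.5 CPM, 40.5-fold (33.3 to 49.8) and 38.6-fold (30.1 to 50.3) lower. For *Krt8* and for *Krt18*, the male and female values differed from each other far less than either did from mesenchymal cells.

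The residual *Epcam* of the mesenchymal class was concentrated in few cells. In the male library 475 of 550 mesenchymal cells (86.4%) had no *Epcam* UMI, and 18 cells with at least 10 *Epcam* UMIs held 399 of the 505 in the class. In the female library 281 of 300 (93.7%) had none, and 5 cells held 102 of 123. These cells were deep, with medians of 14450 and 20242 UMIs against 7936 and 7555 in the others, held 107 of 134 and 26 of 33 *Sox2* UMIs of the class, and 11 of 18 and 5 of 5 carried a high Scrublet doublet score. Without them *Epcam* was at 22.6 and 8.60 CPM in mesenchymal cells. What part doublets had in these levels was not tested.

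Among the repressors, *Zeb1* was at 55.2 and 56.1 CPM in mesenchymal cells against 0.824 (0.543 to 1.20) and 0.485 (0.265 to 0.814) CPM in SCs, which rests on 27 and 14 UMIs. This made it 67.0-fold (45.0 to 103) and 116-fold (66.6 to 217) higher. *Snai1* was 38.0-fold (25.7 to 58.0) and 42.5-fold (27.3 to 68.3) higher, at 34.8 and 38.3 CPM against 0.915 and 0.901 CPM. *Snai2* was 55.3-fold (37.8 to 83.6) and 112-fold (58.2 to 240) higher, at 50.6 and 38.7 CPM against 0.915 and 0.347 CPM. *Zeb2* differed from its relatives, since SCs had 26.8 and 21.7 CPM and mesenchymal cells 80.3 and 72.6 CPM, a ratio of only 3.00 (2.66 to 3.38) and 3.35 (2.83 to 3.96).

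*Vim* encodes the filament protein after which mesenchymal cells are often recognised. Mesenchymal cells had 500.4 (481 to 520) and 481 (454 to 509) CPM of it, and SCs 418 (411 to 425) and 481 (473 to 489) CPM. The ratio of mesenchymal cells to SCs was 1.20 (1.15 to 1.25) in the male and 1.0 (0.942 to 1.06) in the female library. In cells thinned to 5000 UMIs each, the median SC had 2 *Vim* UMIs and the median mesenchymal cell 1 in both libraries. At that depth 79.3% of male and 80.5% of female SCs had a *Vim* UMI, and 63.8% and 71.7% of mesenchymal cells. Without thinning the shares were 90.8% and 91.8% of SCs and 71.3% and 72.3% of mesenchymal cells.

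*Vim* and *Epcam* were therefore found in the same SCs. After thinning, 79.1% (77.3 to 80.8) of male and 80.5% (78.9 to 82.0) of female SCs had UMIs of both genes, against a product of the separate shares of 79.1% and 80.4%, since nearly every SC had *Epcam* (99.8% and 100%). Both were seen in 26.6% and 27.9% of differentiating cells and in 7.23% and 3.68% of mesenchymal cells, where *Epcam* was found in 10.1% and 5.15%. *Krt18* and *Vim* were found together in 74.5% and 77.0% of SCs. Cells with fewer than 5000 UMIs, 377 male and 76 female ones over the 6 classes, did not enter the thinned shares, and 155 of them were male Pomc-high cells.

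Other epithelial and mesenchymal genes were read from lists of 36 and 32 genes drawn from general knowledge. The lists were made with earlier results of these data known, so their counts describe the classes and are not independent support. Of 31 epithelial genes tested, 22 were lower in mesenchymal cells than in SCs and 0 higher, with a median log2 ratio of -2.0 where that of all genes tested was -0.06. The most abundant of those called were *Spint2*, a membrane protease inhibitor (571 and 577 CPM in SCs against 33.0 and 13.8), the claudin *Cldn3* (370 and 527 against 18.4 and 17.8), *Cldn7*, and *Rab25*, a vesicle GTPase of epithelia. Of 30 mesenchymal genes tested, 19 were higher and 1 lower, with a median log2 ratio of 1.78. *Sparc*, a matrix protein, led those higher at 2791 and 3212 CPM against 96.3 and 140 in SCs, followed by the E protein *Tcf4*, the cadherin *Cdh11* (512 and 546 against 8.05 and 8.80), the collagen cross-linker *Lox* and fibronectin (*Fn1*). The gene that went the other way was *Cdh2*, which encodes N-cadherin, at 19.8 and 26.8 CPM in mesenchymal cells and 107 and 145 CPM in SCs.

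The comparison of differentiating cells with SCs asks which of these genes differ between the 2 classes. Cells between the limits of the 2 gates entered neither. Most differentiating cells, 861 male and 638 female ones, were late, with at least 3 UMIs of *Smoc2*, *Pou3f4* and *Shh* together. In the 137 and 125 early cells *Krt18* was at 180 and 220 CPM, against 122 and 118 CPM in late cells. The class levels are therefore mainly those of late cells. Of 9 members tested 4 were called, with *Krt8*, *Krt18* and *Vim* lower and *Zeb1* higher, where 10.5% of 13055 genes were called (7.56% lower and 2.98% higher). *Snai2* had too few UMIs to be tested. The heat map of differences between classes shows each ratio.

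**Figure D1:**
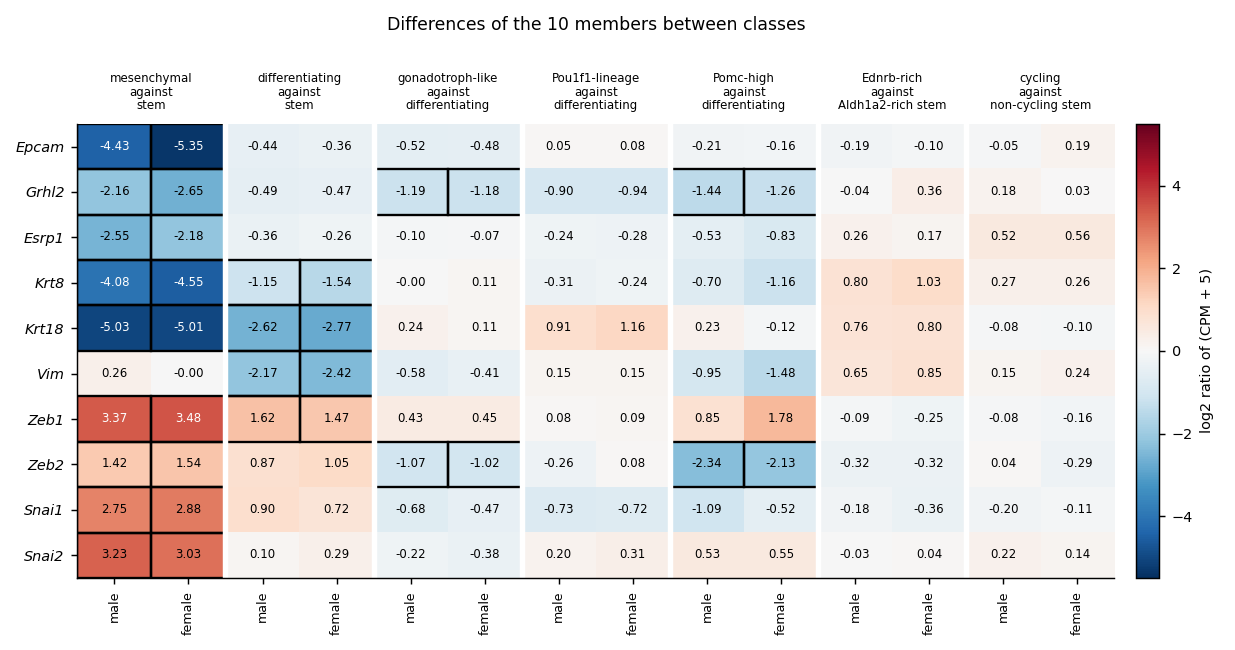
Heat map of the log2 ratio of levels (CPM with 5 added) for the 10 genes in each comparison, in the male and the female library; black frames mark genes past 2-fold in the same direction in both libraries. Frames enclose 9 genes in mesenchymal cells against SCs, 4 in differentiating cells against SCs, 2 each in gonadotroph-like and Pomc-high cells against differentiating cells, and 0 in the other comparisons.

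*Krt18* had the larger of the keratin differences, from 818 and 944 CPM in SCs to 129 and 134 CPM in differentiating cells, 6.33-fold (6.05 to 6.64) and 7.05-fold (6.68 to 7.45) lower. Its partner *Krt8* went from 252 and 362 CPM to 111 and 121 CPM, 2.27-fold (2.15 to 2.39) and 2.99-fold (2.82 to 3.17) lower. Although both proteins pair in the same filaments, their transcripts thus fell by different factors, and the intervals do not overlap. In thinned cells the share with a *Krt18* UMI was 92.1% and 95% in SCs, 25.2% and 28.0% in differentiating cells and 5.37% and 4.41% in mesenchymal cells, which should lack it. Unthinned shares were 97.0% and 98.8%, 44.5% and 45.3%, and 8.0% in both libraries.

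*Vim* fell as well. It was at 89.2 and 86.0 CPM in differentiating cells, 4.68-fold (4.43 to 4.96) and 5.59-fold (5.23 to 5.99) lower than in SCs, and the thinned share of cells with a UMI was 26.6% and 28.0%. Within differentiating cells, 9.65% and 9.99% had UMIs of both *Krt18* and *Vim*, where the product of the separate shares was 6.71% and 7.83%. The same excess over the product was seen in gonadotroph-like cells, where the joint share was 1.58 times the product in the male and 1.41 times in the female library.

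*Epcam*, *Grhl2* and *Esrp1* changed by less than 2-fold. *Epcam* was at 1686 and 1688 CPM in differentiating cells, a difference from SCs of 1.36-fold and 1.29-fold. *Grhl2* was at 14.7 and 17.8 CPM and *Esrp1* at 23.3 and 21.5 CPM. In thinned cells the median was 11 and 10 *Epcam* UMIs in SCs and 8 and 8 in differentiating cells, so adhesion transcripts were still abundant where *Krt18* and *Vim* had fallen.

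Of the repressors, *Zeb1* was called, at 12.9 and 10.2 CPM in differentiating cells, 15.6-fold (10.4 to 24.3) and 20.9-fold (11.9 to 39.6) higher than in SCs. With 5 CPM added to both levels the log2 ratio was 1.62 and 1.47. *Zeb2* was at 53.0 and 50.3 CPM, 1.98-fold (1.79 to 2.18) and 2.32-fold (2.07 to 2.61) that of SCs, with log2 ratios of 0.87 and 1.05, so the male library missed the rule. *Snai1* was at 6.07 and 4.75 CPM, 6.63-fold (4.34 to 10.4) and 5.27-fold (3.22 to 8.82) that of SCs, but its log2 ratio with 5 CPM added was 0.90 and 0.72, short of the rule. *Snai2* was at 1.35 and 1.52 CPM.

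*Zeb1* detection was rare. After thinning, a *Zeb1* UMI was found in 5.49% and 4.60% of differentiating cells, in 0.452% and 0.0762% of SCs and in 24.2% and 20.6% of mesenchymal cells, and the unthinned shares were 14.9% and 11.3%, 1.08% and 0.375%, and 34.4% and 32.3%. *Zeb2* UMIs were found in 18.0% and 19.6% of thinned differentiating cells, 10.8% and 9.49% of SCs and 30.0% and 25.7% of mesenchymal cells, with unthinned shares of 43.1% and 37.4%, 25.3% and 16.4%, and 42.2% and 37%. All thinned differentiating cells with *Zeb2* also had *Epcam*, since the joint share was 18.0% and 19.6%. *Epcam* was abundant in thinned differentiating cells (lower quartile 6 UMIs in both libraries), so this overlap does not show a link between the genes.

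**Figure D2:**
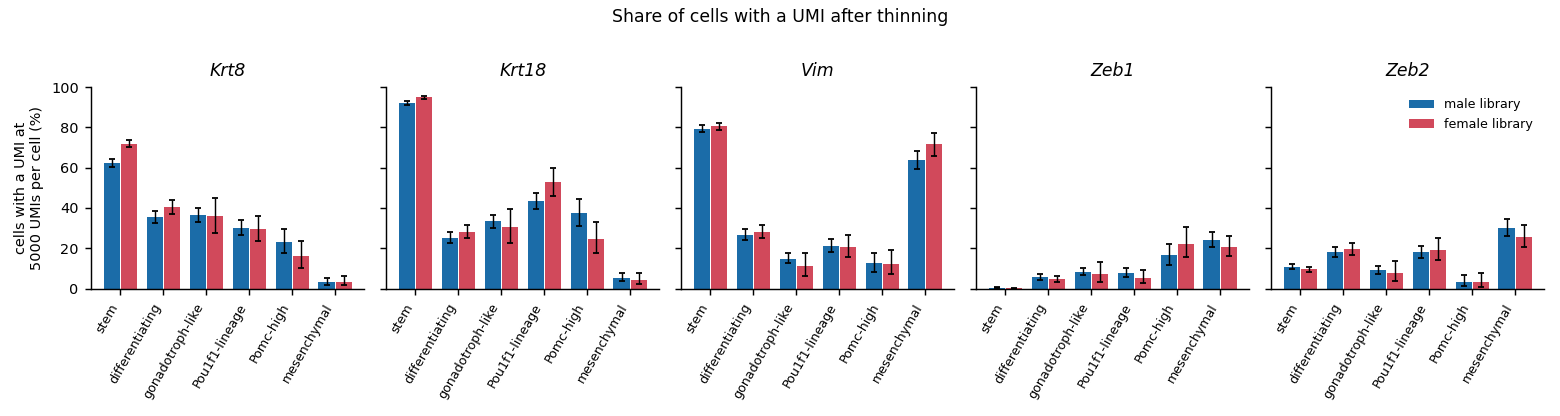
Percentage of cells with at least 1 UMI of Krt8, Krt18, Vim, Zeb1 and Zeb2 after thinning each cell to 5000 UMIs, by class and library, with exact binomial 95% intervals that cover counting error only. The share with Vim is 79.3% and 80.5% in SCs and 26.6% and 28.0% in differentiating cells, whereas that with Zeb1 is highest in mesenchymal (24.2% and 20.6%) and Pomc-high cells (16.4% and 22.3%).

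To see where along the way these levels shift, all cells with at least 3 *Sox2* UMIs were ordered by their summed UMIs of *Lef1*, *Dll1*, *Shh*, *Smoc2* and *Pou3f4*. *Krt18* stepped down from the first UMIs on. It was at 838 and 945 CPM in cells with 0 such UMIs, 713 and 840 CPM with 1 to 2, 456 and 364 CPM with 3 to 5, 158 and 195 CPM with 6 to 10, and 122 and 120 CPM with 11 to 20. *Vim* had the same course, at 429 and 496, 341 and 357, 222 and 160, 99.9 and 109, and 95.6 and 82.6 CPM. *Krt8* went from 263 and 363 CPM at 0 UMIs to 176 and 147 CPM at 3 to 5 and then lay between 109 and 132 CPM up to 20 UMIs in both libraries.

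*Epcam* was at 2142 to 2321 CPM in the male and 1993 to 2344 CPM in the female library up to 5 differentiation UMIs, and at 1675 to 1731 and 1601 to 1747 CPM above that. *Zeb1* was at 0.783 and 0.830 CPM with 0 UMIs, 3.15 and 1.21 CPM with 1 to 2, and 9.91 and 9.80 CPM with 3 to 5, so its level in the third bin was near that of differentiating cells as a class. *Zeb2* went from 25.4 and 21.1 CPM to 59.0 and 57.6 CPM at 6 to 10 UMIs. *Snai1* went from 0.895 and 0.711 CPM to 4.96 and 4.11 CPM at 3 to 5 UMIs. The bin with at least 21 UMIs held 66 and 46 cells, where *Zeb1* was at 14.6 CPM in male and 3.99 CPM in female cells. Deeper cells reach higher bins, with median depths in the male library of 10418 UMIs in the lowest and 17738 in the highest bin, and the part of depth was not tested.

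**Figure D3:**
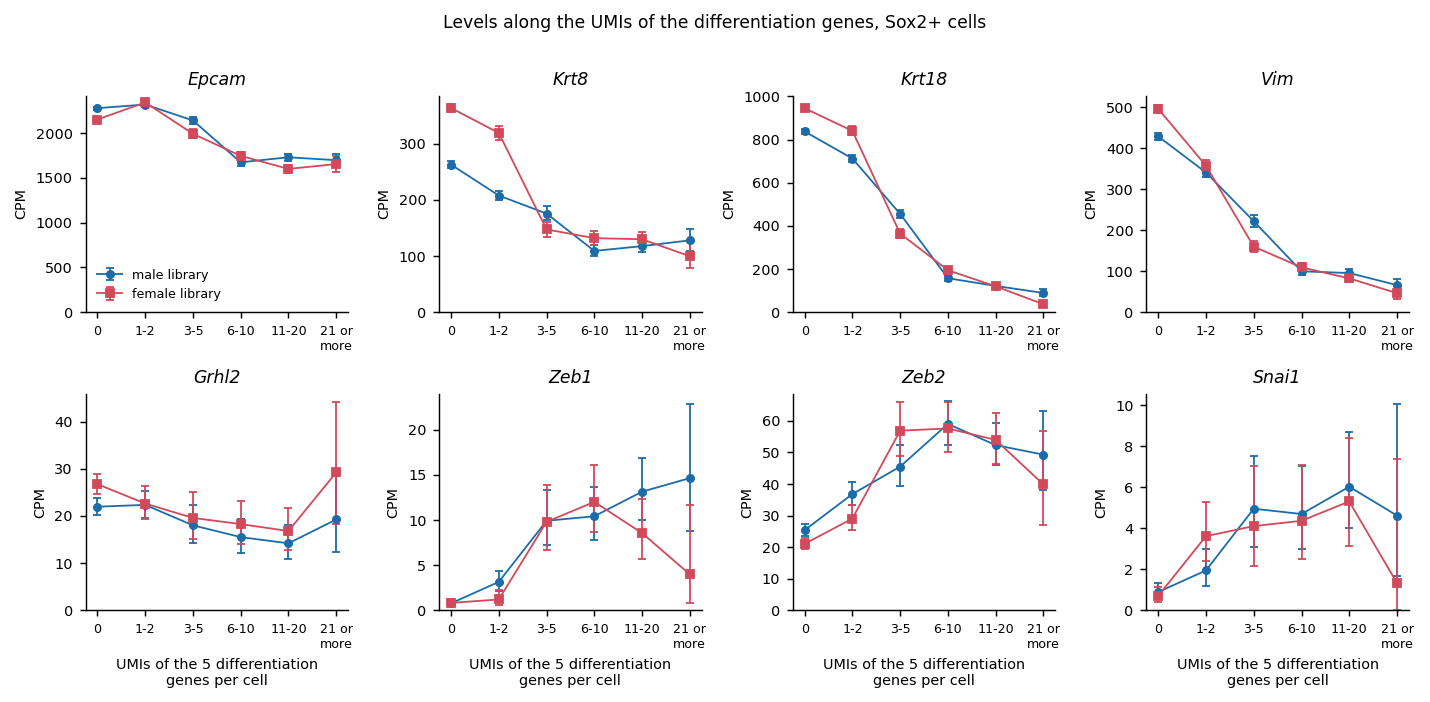
Level (CPM) of Epcam, Krt8, Krt18, Vim, Grhl2, Zeb1, Zeb2 and Snai1 in the male and the female library. Cells are binned by their summed UMIs of Lef1, Dll1, Shh, Smoc2 and Pou3f4. All had at least 3 Sox2 UMIs, and those past the Cga, Pou1f1, Pomc or mesenchymal limits were left out. Krt18 declines from 838 and 945 CPM to 122 and 120 CPM between the bins of 0 and of 11 to 20 UMIs, while Epcam is at 1601 CPM or more in every bin.

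Among the listed epithelial genes, 32 were tested in differentiating cells against SCs, 4 were lower and 1 higher, with a median log2 ratio of -0.38, where that of all genes was -0.03. The laminin chain *Lama5*, the claudin *Cldn4*, the protease *St14* and the keratin *Krt19* were lower. The higher one was *Esrp2*, the paralog of *Esrp1*, at 12.6 and 12.4 CPM in differentiating cells against 1.92 and 1.87 CPM in SCs. Of 26 mesenchymal genes tested, 8 were lower and 1 higher, with a median log2 ratio of -0.54. Those lower included the homeobox factors *Prrx1* (172 and 208 CPM in SCs, 30.9 and 35.7 in differentiating cells) and *Prrx2* (46.6 and 46.2, then 4.11 and 4.65), the RNA-binding protein *Qk* (145 and 144, then 56.5 and 52.7) and *Sparc* (96.3 and 140, then 13.5 and 12.4). *Tcf4* was higher, at 867 and 975 CPM against 317 and 332 CPM. Over all 13055 genes tested, 7.56% were lower and 2.98% higher, so falls outnumbered rises in general. More of the listed mesenchymal genes, too, fell than rose between the SC and the differentiating class. *Vim* among the members also fell, although *Zeb1* and *Tcf4* rose.

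Endocrine classes were each compared with differentiating cells, so the 3 comparisons share those cells and their agreement is not independent. In gonadotroph-like cells 2 of the 9 members tested were called, *Grhl2* and *Zeb2*, both lower, where 3.79% of 11628 genes were called, 0.851% lower and 2.94% higher. Gonadotrophs make luteinising and follicle-stimulating hormone and share *Cga*, the common glycoprotein hormone chain. *Cga* was at 12238 and 8698 CPM in this class.

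*Grhl2* was at 3.66 and 5.07 CPM in gonadotroph-like cells, 4.01-fold (2.92 to 5.61) and 3.50-fold (1.86 to 7.42) lower than in differentiating cells. *Zeb2* was at 22.6 and 22.3 CPM, 2.35-fold (2.05 to 2.69) and 2.25-fold (1.66 to 3.14) lower, which is near its level in SCs. This call was lost without cells of high Scrublet score, where the log2 ratio averaged -1.02 over the libraries but did not reach 2-fold in both. The other members had ratios under 2-fold or few UMIs. *Epcam* was at 1176 and 1208 CPM, its lowest level among epithelial classes, and *Vim* at 58.2 and 63.4 CPM. *Krt8* was at 111 and 131 CPM, *Krt18* at 154 and 145 CPM and *Zeb1* at 19.1 and 15.7 CPM.

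*Zeb2* was lower in male cells with more *Cga* UMIs, which the female library did not share. It was 41.7 CPM in male cells with 20 to 49 *Cga* UMIs, 27.2 CPM with 50 to fewer than 200 and 12.3 CPM with at least 200. In the female library, whose bins held 54, 50 and 26 cells, it was 16.9, 29.5 and 19 CPM. Male median depth rose over the bins, from 12144 to 13524 and 15898 UMIs, and the part of depth was not tested. Male *Snai1* was at 5.96, 1.97 and 0.498 CPM in the same bins, the last of these from 3 UMIs. Split by *Gnrhr*, *Lhb* or *Fshb* UMIs, the receptor and hormone chains that mark more mature gonadotrophs, *Zeb2* was at 29.2 and 23.4 CPM without and 13.5 and 17.3 CPM with them, a ratio of 2.16 (1.66 to 2.85) in the male and 1.35 (0.568 to 3.92) in the female library. In the female library this difference was not detectable at this depth.

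Pou1f1-lineage cells comprise somatotrophs, lactotrophs and thyrotrophs and the cells that give rise to them. By the rule 0 of 9 members were called, where 5.96% of 11754 genes were, 4.3% higher and 1.66% lower. The median gene was 1.10-fold and 1.08-fold higher here (log2 0.13 and 0.11). *Krt18*, *Grhl2* and *Snai1* had the largest differences of those tested. *Krt18* was at 247 and 304 CPM against 129 and 134 CPM, a ratio of 1.91 (1.80 to 2.03) and 2.27 (2.09 to 2.47), or 1.74 and 2.11 relative to the median gene. It was called without cells of high Scrublet score, with doubled gates and with the mean of CPM per cell. *Grhl2* was at 5.52 and 6.83 CPM against 14.7 and 17.8 CPM, 2.66-fold (1.99 to 3.61) and 2.60-fold (1.67 to 4.25) lower, with log2 ratios of -0.90 and -0.94 once 5 CPM were added. *Snai1* was at 1.66 and 0.932 CPM, 3.66-fold (2.19 to 6.46) and 5.09-fold (1.65 to 25.5) lower. With 1 CPM added, both *Grhl2* and *Snai1* passed the rule. *Zeb2*, at 43.3 and 53.4 CPM, had ratios of 0.818 (0.728 to 0.918) and 1.06 (0.889 to 1.26), and *Zeb1* was at 13.9 and 11.2 CPM.

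Within that lineage *Zeb2* was higher in cells with few hormone UMIs. In the 524 and 188 hormone-low cells, which had fewer than 20 *Gh*, 10 *Prl* and 10 *Tshb* UMIs, it was at 51.4 and 64.5 CPM, and in the 99 and 34 cells with at least 20 UMIs of these hormones together at 13.2 and 14.7 CPM. This is a difference of 3.90-fold (2.69 to 5.85) and 4.38-fold (2.32 to 9.31). *Zeb1* went the opposite way, at 12.1 and 5.97 CPM in hormone-low and 19.8 and 29.4 CPM in hormone-high cells, a ratio of 1.64 (1.13 to 2.35) and 4.93 (2.40 to 10.3). Hormone-high cells were deeper, with medians of 20915 and 16402 UMIs against 13829.5 and 12181.5. More of them, 21.2% and 35.3% against 7.82% and 3.19%, had UMIs of at least 2 of 8 proliferation genes. The part of depth and of cycling was not tested.

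Pomc-high cells, which hold corticotrophs and melanotrophs, had the lowest *Zeb2* and the highest *Zeb1* level of the endocrine classes. Hormone-high Pou1f1-lineage cells leaned the same way, with *Zeb1* at 19.8 and 29.4 CPM and *Zeb2* at 13.2 and 14.7 CPM. In Pomc-high cells *Pomc* transcripts took 23.8% and 12.7% of all UMIs, which lowers the CPM of every other gene. The median gene stood there at 0.798 and 0.922 of its level in differentiating cells (log2 -0.33 and -0.12). *Grhl2* and *Zeb2*, 2 of the 9 members tested, were called, both lower, where 9.28% of 11222 genes were called, 4.98% higher and 4.3% lower, or 559 and 482 genes. With levels scaled by the median ratio that split was 740 and 363.

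*Zeb2* was at 6.46 and 7.67 CPM in Pomc-high cells, its lowest level in any class, 8.20-fold (5.82 to 11.9) and 6.56-fold (4.06 to 11.3) lower than in differentiating cells and 6.54-fold and 6.05-fold lower relative to the median gene. Its relative *Zeb1* was at 27.2 and 46.9 CPM, 2.11-fold (1.69 to 2.63) and 4.62-fold (3.49 to 6.11) that of differentiating cells, and 2.64-fold and 5.01-fold relative to the median gene. With 5 CPM added the male log2 ratio was 0.85 and the female 1.78, so the male library missed the rule, which both passed with 1 CPM added or with levels scaled by the median ratio. A *Zeb1* UMI was found in 16.4% and 22.3% of thinned Pomc-high cells, and nearly all of these also had *Epcam* (15.5% and 22.3%), with unthinned *Zeb1* shares of 27.3% and 45.8%. Here too *Epcam* was abundant in the class (lower quartile 5 UMIs in thinned cells of both libraries), so the overlap does not show a link. Most of the class was melanotroph-like, with at least 3 UMIs of *Pax7*, *Pcsk2* and *Oacyl*, and in those 223 and 108 cells *Zeb1* was at 26.0 and 45.9 CPM and *Zeb2* at 4.26 and 2.61 CPM.

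*Grhl2* was at 2.28 and 4.51 CPM in Pomc-high cells, 6.45-fold (3.62 to 12.7) and 3.93-fold (2.09 to 8.34) lower than in differentiating cells, and 5.14-fold and 3.63-fold lower relative to the median gene. It was not called when CPM was averaged over cells (mean log2 ratio -1.06). *Epcam*, at 1453 and 1507 CPM, was 1.08 and 0.968 times its level in differentiating cells relative to the median gene. *Vim* was at 43.9 and 27.5 CPM, its lowest level in any class, a difference of 2.03-fold (1.77 to 2.35) and 3.13-fold (2.41 to 4.12) that did not pass the rule with 5 CPM added and was 1.62-fold and 2.88-fold relative to the median gene. *Krt18* was at 152 and 123 CPM and *Krt8* at 66.3 and 51.4 CPM.

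The listed genes differed in how many were called in each endocrine class. In gonadotroph-like cells 0 of 27 epithelial and 0 of 21 mesenchymal genes tested were called, with median log2 ratios of -0.31 and -0.24, where that of all genes was 0.07 and 3.79% of them were called. In Pou1f1-lineage cells, where 5.96% of all genes were called, 1 of 28 epithelial genes was higher (*Cldn9*) and 3 were lower, *Cldn3* (392 and 452 CPM, then 180 and 216), *Cldn7* and *Krt7*, and of 22 mesenchymal genes *Sparc*, the filament gene *Nes* and the surface glycoprotein *Thy1* were higher and *Tcf4* was lower. The medians were -0.14 and -0.03, with 0.09 over all genes. In Pomc-high cells, where 9.28% of all genes were called, 5 of 27 epithelial genes were lower, among them the junction scaffold *Tjp1* and the claudin *Cldn6*, and *Krt14* was higher. Of 20 mesenchymal genes *Tcf4* (867 and 975 CPM, then 151 and 228), *Qk* and *Mmp14* were lower and *Lox* was higher. The medians were -0.70 and -0.38, with -0.16 over all genes.

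Ranked over the 6 classes by CPM, *Epcam* was highest in SCs, followed by Pou1f1-lineage, differentiating, Pomc-high, gonadotroph-like and mesenchymal cells, with neighbours separated in both libraries. Relative to the median gene, *Epcam* in Pou1f1-lineage cells was 0.948 and 0.981 times its level in differentiating cells. In Pomc-high cells it was 1.08 and 0.968 times that level, so the order of these classes depends on the scaling. The order of other members, read from the values without their intervals, held pairs whose values overlapped between libraries. These were gonadotroph-like and Pomc-high cells for *Grhl2*, gonadotroph-like and differentiating cells for *Krt8*, gonadotroph-like, Pomc-high and differentiating cells for *Krt18*, mesenchymal cells and SCs for *Vim*, and Pou1f1-lineage and differentiating cells for *Zeb1*. For *Zeb2* they were differentiating and Pou1f1-lineage cells, and SCs and gonadotroph-like cells. *Snai1* was not separable among Pou1f1-lineage, Pomc-high cells and SCs, nor was *Snai2* between SCs and gonadotroph-like cells. Some other neighbours had ratios whose intervals allow no difference in either library. Gonadotroph-like against differentiating cells gave 0.922 (0.785 to 1.08) and 0.945 (0.658 to 1.33) for *Esrp1*. Pou1f1-lineage against differentiating cells gave 1.71 (0.909 to 3.24) and 2.04 (0.830 to 4.79) for *Snai2*. Female *Snai1* rested on 4 gonadotroph-like and 3 Pou1f1-lineage UMIs. Outside mesenchymal cells, *Snai1* reached at most 6.07 CPM and *Snai2* at most 4.51 CPM.

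SCs were also split by the endothelin receptor *Ednrb* and the retinoic acid synthesising enzyme *Aldh1a2*, into 564 and 1121 Ednrb-rich cells with at least 2 *Ednrb* UMIs and 1096 and 822 Aldh1a2-rich cells with at least 3 *Aldh1a2* UMIs and 0 of *Ednrb*. None of 7 members tested was called, where 0.301% of 11968 genes were, 0.226% higher and 0.0752% lower in Ednrb-rich cells. These are 27 and 9 genes, or 19 and 14 when levels are scaled by the median ratio. *Krt8* came nearest, at 353 and 479 CPM in Ednrb-rich and 201 and 233 CPM in Aldh1a2-rich cells, a ratio of 1.76 (1.67 to 1.85) and 2.06 (1.96 to 2.17). *Krt18* had a ratio of 1.70 (1.66 to 1.75) and 1.74 (1.69 to 1.80), and *Vim* one of 1.58 (1.52 to 1.64) and 1.82 (1.74 to 1.90). *Epcam* did not share this tilt, with ratios of 0.874 (0.859 to 0.889) and 0.930 (0.913 to 0.948). Of the listed genes the claudin *Cldn4* was called among 30 epithelial genes, at 47.1 and 78.8 CPM against 17.7 and 32.7 CPM, and 0 of 25 mesenchymal genes.

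Cycling SCs, 804 and 639 cells with UMIs of at least 2 of 8 proliferation genes, were set against 1187 and 1672 SCs with 0. None of 7 members tested was called, where 3.56% of 12202 genes were, 3.48% higher and 0.0738% lower. *Esrp1* had the largest ratio, 1.52 (1.32 to 1.75) and 1.58 (1.35 to 1.84), from 37.6 and 34.6 CPM in cycling and 24.7 and 21.9 CPM in the other SCs. *Krt8* had ratios of 1.21 and 1.20. Of the listed genes, 0 of 30 epithelial and 1 of 25 mesenchymal (*Nes*) were called. Between the sexes, 0 of 7 members were called in SCs, where 0.265% of 12440 genes were, 0.169% higher and 0.0965% lower in males, and the male to female ratio was 0.695 (0.675 to 0.715) for *Krt8*, 0.867 for *Krt18*, 0.868 for *Vim* and 1.24 for *Zeb2*. With 1 library each, sex and library cannot be told apart.

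The likeness of expression patterns was described by Pearson's r of log2 levels over 22 points, 11 subclasses in each of 2 libraries, among 13492 genes. The points share libraries and the class definitions, so r is given as a description. *Epcam* was most like *Spint2*, the factor *Six6* and *Rab25* (r = 0.97 for each). *Grhl2* was most like the junction protein *Amot* (0.96), the receptor kinase *Met* and the choline transporter *Slc5a7* (0.95 each), and *Esrp1* like *Six2*, *Cldn6* and the exchange factor *Arhgef16* (0.96 each). *Krt8* was most like *Cldn6* (0.98) and *Krt18* like the glycolytic enzyme *Aldoc* (0.96), while *Vim* was most like *Svbp* (0.97), podoplanin (*Pdpn*) and the matrix protein *Prelp* (0.96 each). *Snai1* was most like *Ppp1r18* and the matrix protein *Efemp1* (0.96 each) and *Snai2* like *Carmn* (0.97). *Zeb1* was most like the factor *Creb3l2* (0.92) and *Zeb2* like *Utp23* (0.89).

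Between members, *Krt8* and *Krt18* had r = 0.94, *Krt8* and *Esrp1* 0.95, and *Snai1* and *Snai2* 0.88. *Zeb1* was opposite to *Krt8* (-0.91), *Krt18* (-0.90) and *Grhl2* (-0.86). The paralogs *Zeb1* and *Zeb2* had r = 0.13, and *Vim* had r = -0.02 with *Krt18* and -0.44 with *Epcam*. *Vim* was high in both SCs and mesenchymal cells.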

How the data were processed

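Transcript counts were measured in 2 droplet libraries, 1 per sex. The authors ran Cell Ranger 3.0.2 on an mm10 reference with the eGFP sequence added, and the deposited files hold raw UMI counts per gene and barcode for 10569 male and 5796 female barcodes, without normalization. The sources name different versions of the droplet chemistry, which was not settled. Submitters' processing notes also name R 3.6.0 and Seurat 3 and 4, whose output was not used here.

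Barcodes with fewer than 50 genes or a mitochondrial share over 3 SD above the library mean were removed (159 male and 85 female). Totals over the barcodes kept were 105883748 and 62830305 UMIs, with medians of 8902.5 and 9789 per cell. Groups came from the labelled sex, and classes from the gates given with the results. Apart from the opening conditions, SC and differentiating gates required fewer than 20 *Cga*, 2 *Pou1f1* and 30 *Pomc* UMIs, the endocrine gates carried the corresponding ceilings, and mesenchymal cells had fewer than 5 UMIs of *Rgs5*, *Kcnj8* and *Abcc9*.

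UMIs were summed per class and library and divided by the class total (CPM). Intervals are exact at 95% (Poisson for levels, Clopper-Pearson for shares, conditional binomial for ratios), a count of 0 allows up to 3 UMIs, and 5 CPM were added for the 2-fold rule. Cells were thinned to 5000 UMIs with seed 1. No doublets were removed, but cells with the highest Scrublet scores (scanpy 1.11.5, 0.8% per 1000 cells, 867 male and 261 female) were marked. Python 3.11.15, numpy 2.4.6, scipy 1.17.1 and pandas 2.3.3 were used, and the counting steps were tested on simulated data. Genes named in the related lists are those called in a comparison with the highest CPM, up to 5 in each direction, and *Prrx2*, *Cldn4*, *St14*, *Krt19*, *Cldn9* and others outside that limit were added after their values were seen. Alternatives changed the gates, doublets, depth, added CPM, scaling, averaging and fold. The members and gene lists were chosen with earlier results of these data known.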

Additional observations from a re-analysis of the deposited data

Results flagged for a closer look

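*Epcam* differed in direction between the libraries when cycling SCs were set against non-cycling SCs. The ratio was 0.963 (0.949 to 0.978) in the male library, at 2239 and 2324 CPM, and 1.14 (1.12 to 1.16) in the female library, at 2365 and 2075 CPM. Both are small, and the difference between the libraries was not tested, since each sex has 1 library.

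Cells with at least 5 UMIs of the pericyte genes *Rgs5*, *Kcnj8* and *Abcc9*, 31 male and 9 female, entered no comparison above. Pericytes are contractile cells that wrap small vessels. In these cells *Vim* was at 1085 CPM (949 to 1235) and 1383 CPM (1109 to 1704), *Zeb1* at 118 CPM (76.3 to 174) and 141 CPM (64.7 to 269), and *Zeb2* at 212 CPM (155 to 284) and 283 CPM (168 to 447), well over the limit that a count of 0 allows. The female values rest on 9 cells.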

How the results depend on the processing

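Of 603 ratios of members under 9 alternative settings, 579 kept their side of the 2-fold rule, 16 passed it newly and 8 no longer passed it. Among ratios called in the main setting 0 changed direction. Changes of direction were not counted for ratios that were not called. Log2 values below are means over the libraries, and a call needs both. With 1 CPM added in place of 5, the genes past 2-fold went from 2047 to 3098 (mesenchymal cells against SCs), 1376 to 2427 (differentiating against SCs), 441 to 820 (gonadotroph-like), 700 to 1258 (Pou1f1-lineage), 1041 to 1618 (Pomc-high), 36 to 123 (Ednrb-rich) and 33 to 79 (male against female SCs). At 3-fold these were 1063, 561, 126, 230, 403, 4 and 8, and 250 in place of 434 for cycling SCs. For Ednrb-rich cells doubled gates gave 98 and the mean of CPM per cell 78.

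Members called in differentiating cells went from 4 to 2 at 3-fold. In gonadotroph-like cells the 2 became 1 without cells of high Scrublet score, where *Zeb2* was no longer called (log2 -1.02), and 0 at 3-fold. In Pou1f1-lineage cells the 0 became 1 with doubled gates, without cells of high Scrublet score and with the mean of CPM per cell, each time *Krt18* (log2 1.32, 1.29 and 1.21), and 2 with 1 CPM added (*Grhl2* at -1.26 and *Snai1* at -1.49). In Pomc-high cells the 2 became 5 with 1 CPM added and 1 at 3-fold. *Zeb1* was called there with 1 CPM added (1.56), median-ratio scaling (1.51) and the mean of CPM per cell (1.49), and *Vim* without cells of high Scrublet score (-1.43), with at least 5000 UMIs (-1.27) and with 1 CPM added (-1.31), while *Grhl2* was not called with the mean of CPM per cell (-1.06). In Ednrb-rich cells the 0 became 2 with doubled gates (*Krt8* at 1.29, *Krt18* at 1.03) and 1 with the mean of CPM per cell (*Krt8* at 1.03). *Snai1* was called in differentiating cells with 1 CPM added (1.74), and *Zeb2* was not called in mesenchymal cells at 3-fold (1.48).

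The mean share of SCs with both *Epcam* and *Vim* went from 79.8% to 64.5% when cells were thinned to 3000 UMIs and to 91.2% without thinning. The cause of these shifts was not tested. No paired analysis was possible because each sex has 1 library. Depth limits *Snai1*, *Snai2* and, in SCs, *Zeb1*, which rest on 10 to 30 UMIs in SCs, and the female gonadotroph-like and Pomc-high cells.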

Other observations

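Mesenchymal cells were not uniform for the set. In 218 and 151 cells with at least 5 UMIs of *Apod* and *Mfap5*, *Vim* was at 744 and 669 CPM, and in 159 and 62 cells with at least 2 *Tcf21* UMIs and fewer than 2 of the former at 254 and 207 CPM, a ratio of 2.92 (2.59 to 3.3) and 3.24 (2.62 to 4.05). *Snai2* was reversed, at 34.5 and 19.3 CPM against 81.9 and 63.8 CPM in *Tcf21* cells, 2.37-fold (1.76 to 3.21) and 3.31-fold (1.90 to 5.77) lower. Against the *Tcf21* cells alone, then, the *Vim* level of SCs (418 and 481 CPM) was the higher one.

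Some listed genes, picked here after their values were seen, departed from their usual association. *Prrx1*, a mesenchymal homeobox factor, was at 172 and 208 CPM in SCs and 107 and 84.1 CPM in mesenchymal cells. The cadherins had both forms in SCs, *Cdh1* (E-cadherin) at 16.5 and 21.7 CPM and *Cdh2* at 107 and 145 CPM, and mesenchymal cells had 5.0 and 1.58 CPM of *Cdh1*. By contrast *Twist1*, another repressor of epithelial genes, was at 1.49 and 0.797 CPM in SCs and 194 and 222 CPM in mesenchymal cells.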
